A study of Homo sapiens with 6 samples.

Results

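The S100 proteins and annexins were compared between HuCCT1/CD90+ and HuCCT1/CD90- cells through every row of the expression table whose gene symbol begins with S100, or is ANXA followed only by a number. The rule found 34 of 20811 genes, 22 by the S100 prefix and 12 annexins. One of the 22, S100PBP, encodes a binding protein of S100P and is no S100 protein itself. HuCCT1 is an established human intrahepatic cholangiocarcinoma line. HuCCT1/CD90+ cells carried the human THY1-CMV-GFP lentivirus, which expresses CD90, whereas HuCCT1/CD90- cells were given the Lenti-CMV-GFP-2A-Puro-Blank lentivirus, both at a multiplicity of infection of 40 and both in the same medium with serum. Each line was represented by 3 libraries, and it is not given in the sources used here whether a line was a clone or a pool, or whether its libraries came from separate cultures, so that p-values measure the spread between these libraries only.

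S100 proteins are small calcium sensors that carry a pair of EF-hand loops and work as dimers. When they bind calcium, most of them expose a surface that docks onto other proteins inside the cell, and several are also released and act on receptors such as RAGE and TLR4. Annexins bind acidic phospholipids in the presence of calcium and tie membranes to each other and to the actin cortex, which matters for vesicle traffic and for the repair of torn plasma membrane. The families meet in complexes: S100A10 with ANXA2 and S100A11 with ANXA1 form assemblies that bridge membranes. In epithelial tumours S100A4 is known as a marker of migratory, mesenchymal cells.

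Values are RPM, read counts put on a common library size by the authors, from an Ion AmpliSeq panel that reads each gene over 1 short amplicon, so that levels of different genes also reflect their amplicons and only differences of the same gene between libraries are compared here. Depth ranged from 9345680 to 10551516 gene reads in HuCCT1/CD90- and from 8587634 to 9327650 in HuCCT1/CD90+, so every HuCCT1/CD90+ library was the shallower. The floor used here, 3 reads, corresponds to 0.284 to 0.349 RPM, and the floor covers counting error only. THY1 itself was read 0, 1 and 0 times in HuCCT1/CD90- against 435, 445 and 680 times in HuCCT1/CD90+. Of 7 biliary epithelial markers none was at the floor in all 6 libraries, and their summed level was 8210 to 9314 RPM in HuCCT1/CD90- against 10974 to 11722 RPM in HuCCT1/CD90+. Of 8 leukocyte and myeloid markers PTPRC, CD3E and CSF3R were at the floor in every library, and the list summed to 131 to 155 RPM in HuCCT1/CD90- against 89.9 to 108 RPM in HuCCT1/CD90+. Within that list CD14 (80.8 against 4.32 RPM) and LYZ (12.0 against 1.52 RPM) were lower in HuCCT1/CD90+, while CD68 (50.8 against 92.2 RPM) and CD79A (0 against 1.08 RPM) were higher. Of 6 fibroblast markers none was at the floor in all 6 libraries, although COL1A2 and COL3A1 had 0 RPM and DCN a mean of 0.039 RPM in HuCCT1/CD90+, with sums of 41.8 to 64.9 RPM in HuCCT1/CD90- against 20.3 to 24.7 RPM in HuCCT1/CD90+. Endothelial markers (1 of 4 at the floor in every library) summed to 14.5 to 23.2 RPM in HuCCT1/CD90- against 0.643 to 1.63 RPM in HuCCT1/CD90+, hepatocyte markers (3 of 5) to 3.59 to 5.89 against 0 to 0.814 RPM, and melanocyte and Schwann cell markers (4 of 6) to 2.43 to 3.89 against 5.10 to 7.22 RPM. The part of these cell types in the results was not tested. A lower level in a line cannot be told apart as fewer expressing cells or as less RNA per cell.

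The test was limma, applied to log2(RPM + 1) of all 20811 genes, and a gene passed at a Benjamini-Hochberg adjusted p of at most 0.05. Of the 34 genes 11 passed, where 18.9% of all genes tested did. Of the 20 members that averaged 10 RPM or more 3 were higher and 6 lower, beside 14.3% and 14.1% of all such genes. Among the 22 S100 rows 5 were lower and 2 higher in HuCCT1/CD90+, where 9.52% of all genes tested were lower and 9.41% higher. Among the 12 annexins 1 was lower and 3 were higher. With the replicate number as a block 4 S100 rows were lower and 1 higher, and 2 annexins were lower and 2 higher. By that fit 1331 of all 20811 genes were lower and 1398 higher. The median log2 fold change was -0.0033 over the S100 rows and -0.0029 over the annexins, beside a median of 0 over all genes tested. Of the S100 rows 7 were at the floor in every library and lie close to 0. As a description, the other 15 had a median of -0.41, beside -0.0087 over all genes above the floor. Of the 22 S100 rows 17 lie in a cluster on chromosome 1. The 50 genes averaging 10 RPM or more nearest to S100A4, a gene of that cluster, had a median of -0.42. The part of this regional shift in the S100 median was not tested. At the thresholds named in the methods of the study, a fold change of 1.5 and an unadjusted p of at most 0.05, 4 S100 rows were lower and 1 higher, and 2 annexins were lower and 3 higher. Of all genes tested 9.98% were lower and 10.1% higher by that rule. The libraries of the lines did not overlap for 9 lower and 8 higher of the 34 genes, where 17.7% and 17.3% of all genes did the same. Of the 34 genes 26 exceeded the floor in at least 1 library.

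**Figure D1:**
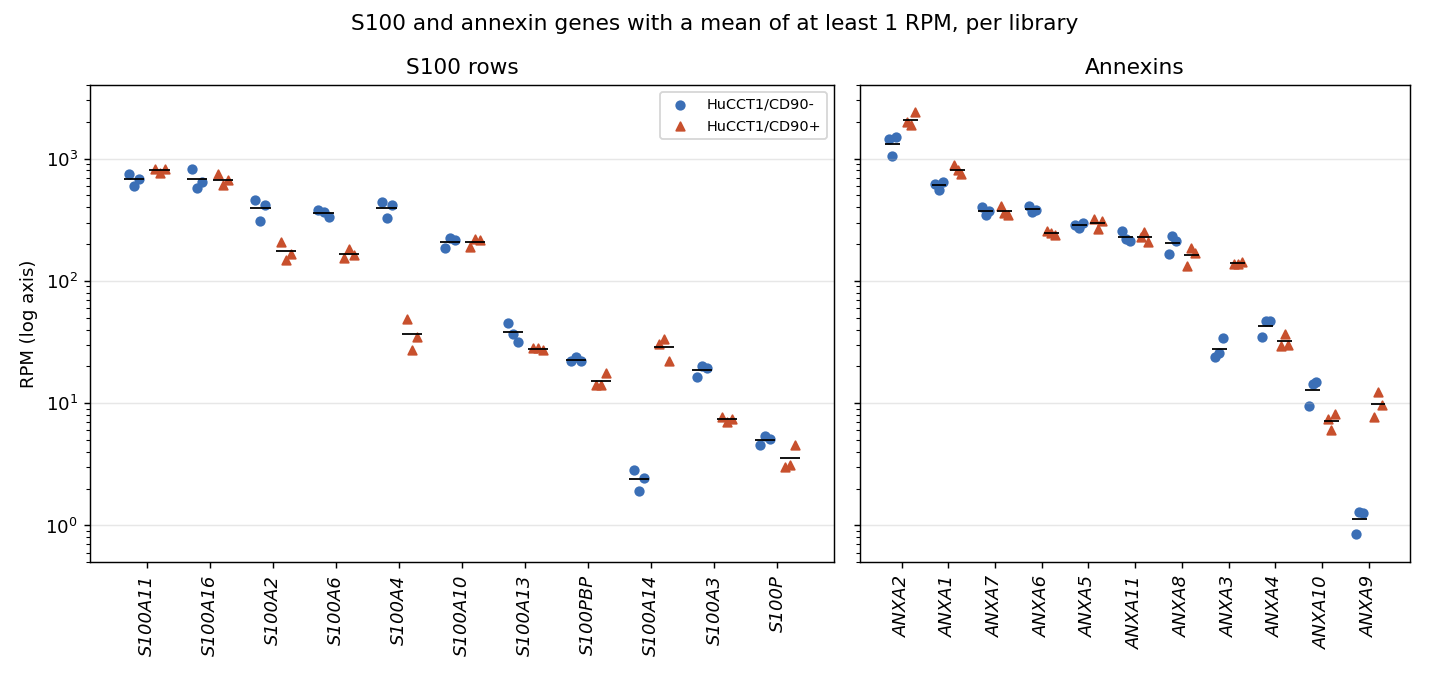
Level of each S100 or annexin gene averaging 1 RPM or more, in RPM on a log axis; circles are the 3 HuCCT1/CD90- libraries, triangles the 3 HuCCT1/CD90+ libraries and bars the means. S100A4 dropped from a mean of 394 to 37.1 RPM, while S100A14, ANXA3 and ANXA9 were higher in every HuCCT1/CD90+ library.

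Among the S100 rows that passed as lower, S100A4 had the largest fold change. S100A4 is a calcium sensor that binds the heavy chain of non-muscle myosin IIA and promotes its disassembly. S100A4 stood at 441, 326 and 415 RPM in the HuCCT1/CD90- libraries and at 49.1, 27.1 and 34.9 RPM in the HuCCT1/CD90+ libraries. The lowest HuCCT1/CD90- library lay far above the highest HuCCT1/CD90+ library. The mean fell from 394 ± 60.7 to 37.1 ± 11.1 RPM (SD, n = 3 each), 10.6-fold, with a log2 fold change of -3.41 (SE, the standard error, 0.26; 95% CI, the confidence interval, from -4.10 to -2.71, adjusted p = 0.0030, limma). The call held without any 1 of the 6 libraries, with adjusted p-values from 0.0075 to 0.021 (limma).

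S100A4 lies on chromosome 1 within a row of S100 genes. From S100A6 to S100A2 the table holds 5 genes in 33.3 kb of GRCh38 (GENCODE 29), in the order S100A6, S100A5, S100A4, S100A3 and S100A2, and all but S100A5 passed as lower, beside 9.52% of all genes tested. This stretch was marked off by its own lower genes after their values were seen, so the count is a description. S100A6, also called calcyclin, which binds the ubiquitin ligase adaptor CACYBP, stood at 379.7, 363 and 333 RPM in HuCCT1/CD90- and at 155, 181 and 164 RPM in HuCCT1/CD90+. Its 3 HuCCT1/CD90+ libraries all lay below the HuCCT1/CD90- libraries, with a log2 fold change of -1.10 (SE 0.080, adjusted p = 0.0026, limma).

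S100A3, a cysteine-rich S100 protein best known from the hair cuticle, was lower as well. It had 16.5, 20.1 and 19.2 RPM in HuCCT1/CD90- and 7.72, 6.99 and 7.38 RPM in HuCCT1/CD90+. The libraries of the lines were separate, and the mean fell 2.53-fold (log2 fold change -1.23, SE 0.085, adjusted p = 0.0023, limma). The S100A3 gene lies within the extent of S100A4 on the same strand, and the position of neither amplicon is given in the sources used here, so reads of the pair may not be fully separate.

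S100A2, an S100 protein of basal and squamous epithelia that binds p53, had 460.0, 308 and 418 RPM in HuCCT1/CD90- and 209, 147 and 166 RPM in HuCCT1/CD90+. The lines did not overlap, and the mean fell from 395 ± 78.8 to 174 ± 31.8 RPM (SD, n = 3 each), which is a log2 difference of -1.17 (SE 0.22, adjusted p = 0.029, limma). This call was less stable than those of S100A4, S100A3 and S100A6. Of the fits that left out 1 library it passed only without HuCCT1/CD90- replicate 2 (adjusted p = 0.034, limma), and the other 5 gave adjusted p-values from 0.051 to 0.10. Among the 6 keratinocyte markers KRT1 and IVL were at the floor in every library. The keratinocyte list summed to 62.5 to 142 RPM in HuCCT1/CD90- against 4.50 to 4.99 RPM in HuCCT1/CD90+, and its part in the level of S100A2 was not tested.

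The remaining gene of the row, S100A5, was close to the floor. Its reads numbered 3, 11 and 3 in HuCCT1/CD90- against 0 in each HuCCT1/CD90+ library, and the difference did not pass (log2 fold change -0.62, adjusted p = 0.17, limma). It passed with DESeq2 on recovered reads (adjusted p = 0.014) and in 1 of the 6 limma fits without a library (adjusted p = 0.0015).

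Over the 911 genes of chromosome 1 averaging 10 RPM or more the median difference on the log2 scale was -0.32, and the 50 such genes nearest to S100A4 had a median of -0.42. With the median of the neighbours divided out of the HuCCT1/CD90+ values, S100A4 (log2 fold change -2.999, adjusted p = 0.0045), S100A3 (-0.85, adjusted p = 0.0064) and S100A6 (-0.69, adjusted p = 0.0093) still passed, whereas S100A2 did not (-0.76, adjusted p = 0.094, limma).

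**Figure D2:**
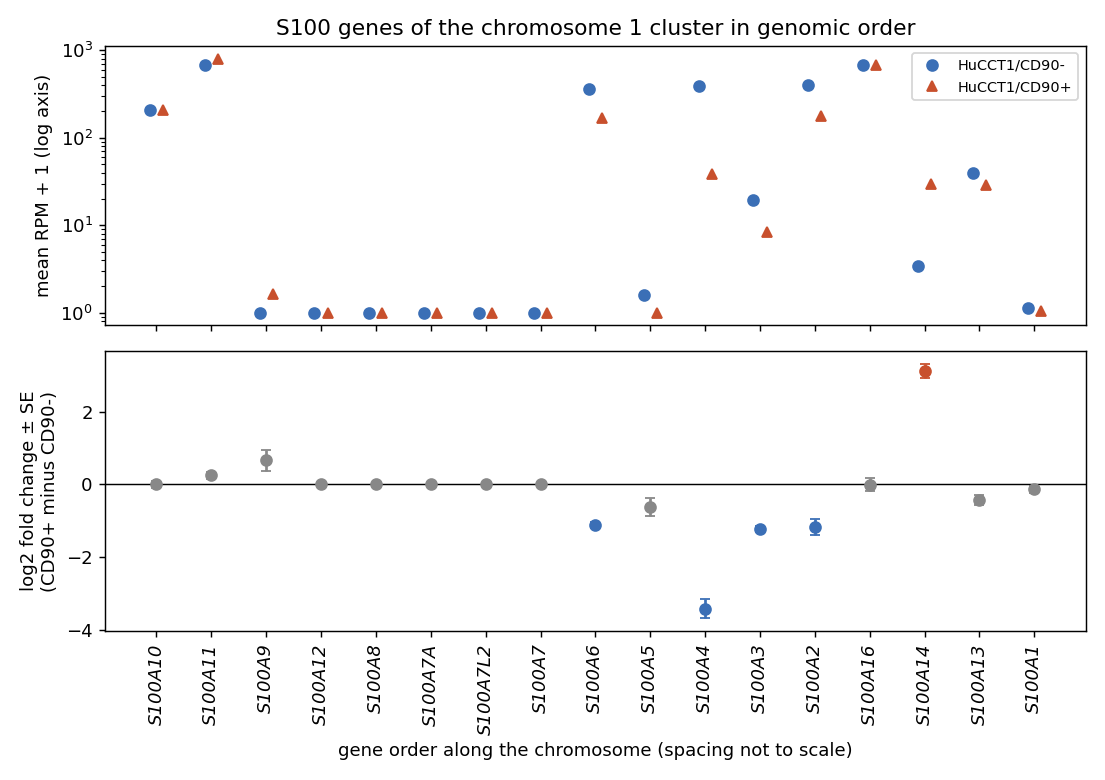
The 17 S100 genes of the chromosome 1 cluster in genomic order, not to scale. The upper panel plots the mean RPM + 1 of each line on a log axis and the lower panel the log2 fold change with its SE, coloured where the adjusted p is at most 0.05; 4 of the 5 genes from S100A6 to S100A2 were lower, and S100A14 was higher.

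In contrast to that row, S100A14 was higher in HuCCT1/CD90+. S100A14 is an S100 protein found mainly in epithelia, and its gene lies beyond S100A2 and S100A16 in the same cluster. It had 2.84, 1.93 and 2.43 RPM in HuCCT1/CD90- and 30.3, 33.3 and 22.1 RPM in HuCCT1/CD90+. Every HuCCT1/CD90+ library lay well above every HuCCT1/CD90- library, and the mean rose 11.9-fold, from 2.40 ± 0.459 to 28.6 ± 5.78 RPM (SD, n = 3 each). The log2 fold change was 3.11 (SE 0.20, 95% CI from 2.59 to 3.63, adjusted p = 0.0019, limma), and the adjusted p stayed between 0.0054 and 0.014 without any 1 library.

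Stretches before the start sites of S100A4, S100A3, S100A2 and S100A14 are shown because these genes lie close together and moved in opposite directions. They are from RefSeq on GRCh38.p14, minus strand, and run from 250 bases before the start to the last base before an annotated exon (GENCODE 29). Capitals mark matches to the AP-1 motif TGANTCA, the TEAD motif GGAATG or the E-box CAGGTG on either strand.
S100A4, chr1:153545886-153546056: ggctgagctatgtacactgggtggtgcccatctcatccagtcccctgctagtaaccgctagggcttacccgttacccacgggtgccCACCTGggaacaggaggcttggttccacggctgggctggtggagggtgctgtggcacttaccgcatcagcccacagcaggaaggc
S100A3, chr1:153549373-153549508: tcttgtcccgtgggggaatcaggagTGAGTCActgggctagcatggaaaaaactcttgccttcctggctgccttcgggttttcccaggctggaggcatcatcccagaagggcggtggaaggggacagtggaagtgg
S100A2, chr1:153565866-153566094: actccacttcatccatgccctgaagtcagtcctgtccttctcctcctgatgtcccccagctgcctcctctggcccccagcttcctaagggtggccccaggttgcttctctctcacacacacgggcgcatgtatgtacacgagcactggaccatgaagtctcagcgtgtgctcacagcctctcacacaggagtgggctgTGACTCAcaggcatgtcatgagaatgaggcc
S100A14, chr1:153616356-153616575: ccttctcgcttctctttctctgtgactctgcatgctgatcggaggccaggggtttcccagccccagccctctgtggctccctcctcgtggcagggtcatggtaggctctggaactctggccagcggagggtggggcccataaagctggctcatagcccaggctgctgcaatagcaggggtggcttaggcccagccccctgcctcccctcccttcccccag

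S100A4 held an E-box, S100A3 and S100A2 each an AP-1 match, and S100A14 no match in the stretch shown. S100A6, the other gene of the row that passed as lower, is not shown and had no match in the 250 bases before its start. S100A14 does hold an E-box 14 bases before its start, in the exon part not shown, and a further start of S100A2 holds one 18 bases before it. Over the whole 250 bases before each start, RefSeq promoters were found for 30 of the 34 genes, 43 promoters in all because some genes have several starts. An E-box was present in 18 of the 43 (41.9%), against 17.5% of all 35116 promoters. AP-1 matches were present in 6 of the 43, against 6.57% of all promoters, and TEAD matches in 2, against 11.9%. Of the 15 promoters of genes that passed the test, 6 held an E-box. Genes with several starts and the near copies S100A7 and S100A7A enter more than once, no matches to different motifs overlapped, and a match is a description of letters and not a bound site.

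Other genes of the same cluster did not pass the test. S100A16, a widely expressed S100 protein between S100A2 and S100A14, had 828, 571 and 641 RPM in HuCCT1/CD90- and 744, 604 and 665 RPM in HuCCT1/CD90+ (log2 fold change -0.0066, 95% CI from -0.47 to 0.45, limma). S100A10, known as p11, which has lost calcium binding and is held in an active shape, had 185, 224 and 217 RPM in HuCCT1/CD90- and 190.4, 219 and 217 RPM in HuCCT1/CD90+ (log2 fold change 0.0046, 95% CI from -0.27 to 0.28). With the shift of neighbouring genes divided out, S100A10 stood at 0.42 (adjusted p = 0.064, limma) and S100A16 at 0.41. As deposited, the values of the lines overlapped for both genes.

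S100A11, which partners ANXA1 and is present in most epithelia, had 749, 595 and 687 RPM in HuCCT1/CD90- and 823, 764 and 815 RPM in HuCCT1/CD90+. All HuCCT1/CD90+ libraries lay above the HuCCT1/CD90- libraries, yet the difference did not pass (log2 fold change 0.25, adjusted p = 0.18, limma). With the shift of its neighbours divided out, it did (0.66, adjusted p = 0.017, limma). S100A13, which takes part in the release of FGF1 and interleukin 1 alpha, differed by -0.42 on the log2 scale with separate libraries (adjusted p = 0.12 with limma, 0.044 with edgeR and 0.053 with DESeq2) and by -0.023 with the shift of its neighbours divided out, and its gene overlaps S100A1 on the opposite strand. S100P, first found in placenta, lies on chromosome 4 and had 3.00 to 5.35 RPM in all libraries (adjusted p = 0.16, limma). It passed in 1 of the 6 limma fits without a library (adjusted p = 0.035).

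The S100 genes of myeloid cells and of stressed skin were silent or nearly so. S100A7, S100A7A, S100A7L2, S100A8, S100A12 and S100G had 0 reads in all 6 libraries, and S100A1, the S100 protein of heart muscle, at most 2. S100A8 and S100A9 form calprotectin, which neutrophils release in quantity. S100A9 had 0 reads in each HuCCT1/CD90- library against 13, 3 and 2 in HuCCT1/CD90+, a difference carried mostly by HuCCT1/CD90+ replicate 1 that did not pass (adjusted p = 0.22, limma; 0.0072 with DESeq2 on recovered reads). Without that library its adjusted p was 0.039. S100B, the S100 protein of glia, had 4, 0 and 3 reads in HuCCT1/CD90- and 0 in each HuCCT1/CD90+ library. It did not pass (adjusted p = 0.26, limma), but did in 1 of the 6 limma fits without a library (adjusted p = 0.013).

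S100Z and S100PBP passed by a small margin. S100Z had 0 reads in each HuCCT1/CD90- library and 5, 2 and 6 in the HuCCT1/CD90+ libraries (log2 fold change 0.55, adjusted p = 0.045, limma, or 0.11 with the replicate number as a block), a level near the floor. S100PBP lies on another part of chromosome 1, and its gene overlaps YARS on the opposite strand. It had 22.2, 23.9 and 21.9 RPM in HuCCT1/CD90- and 14.04, 14.1 and 17.6 RPM in HuCCT1/CD90+ (log2 fold change -0.55, adjusted p = 0.029, limma, or 0.11 with the block). With the shift of its neighbours divided out, S100PBP stood at -0.31 and did not pass (adjusted p = 0.13, limma). When a library was left out, S100Z passed only without HuCCT1/CD90+ replicate 2 (adjusted p = 0.0070) and S100PBP only without HuCCT1/CD90+ replicate 3 (adjusted p = 0.011, limma).

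**Figure D3:**
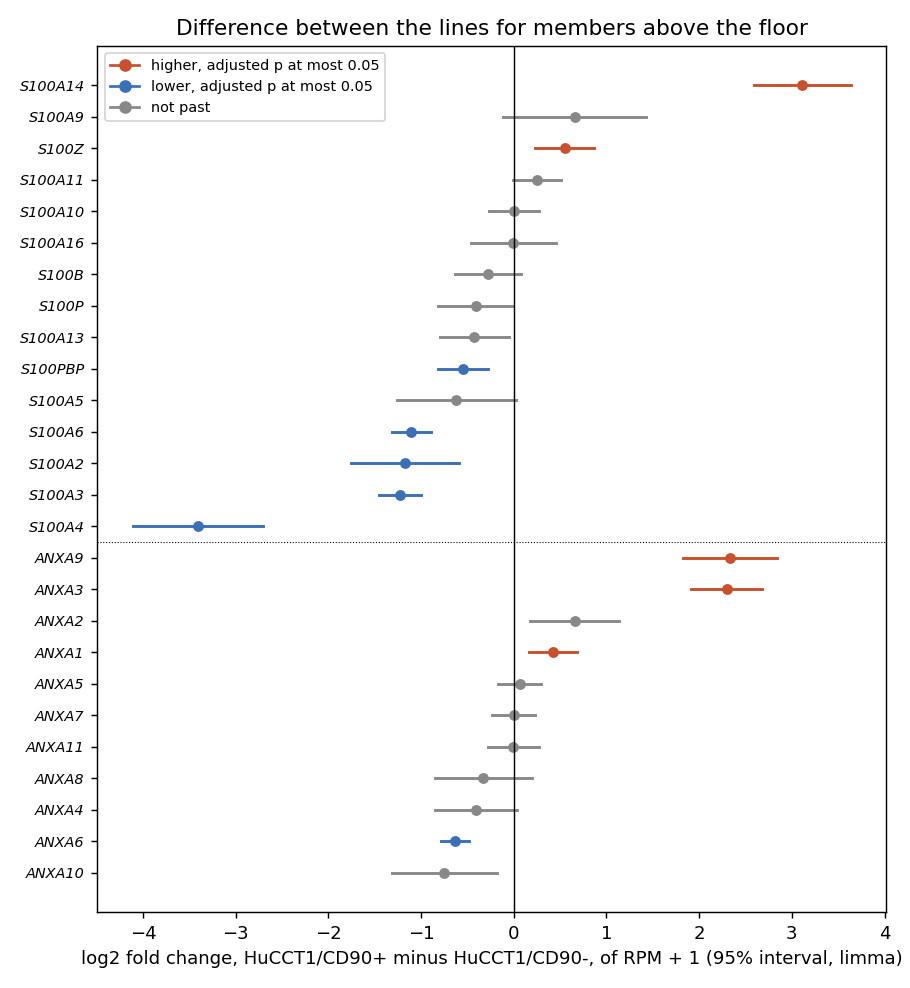
Log2 fold change of RPM + 1, HuCCT1/CD90+ minus HuCCT1/CD90-, with the 95% CI, limma, for the 26 genes above the floor; colours mark an adjusted p of at most 0.05. S100A4 lies at -3.41, and S100A14, ANXA9 and ANXA3 lie between 2.30 and 3.11.

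Among the annexins the largest differences were rises. ANXA3, an annexin best known from neutrophil granules and from several carcinomas, stood at 23.8, 25.8 and 34.0 RPM in HuCCT1/CD90- and at 136, 138 and 143 RPM in HuCCT1/CD90+. The HuCCT1/CD90+ libraries lay close together and far above the others, and the mean rose 4.997-fold, from 27.8 ± 5.39 to 139 ± 3.34 RPM (SD, n = 3 each; log2 fold change 2.30, SE 0.14, adjusted p = 0.0018, limma). ANXA3 lies on chromosome 4, where the 50 nearest genes had a median log2 fold change of 0.40, and with that divided out its own was 1.89 (adjusted p = 0.0030, limma).

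ANXA9, an atypical annexin whose calcium binding sites are altered, rose from a low level. It had 0.853, 1.28 and 1.26 RPM in HuCCT1/CD90- and 7.72, 12.2 and 9.66 RPM in HuCCT1/CD90+. The libraries were separate, and the mean rose 8.71-fold (log2 fold change 2.33, SE 0.19, adjusted p = 0.0034, limma). ANXA9 lies on chromosome 1 as well, and its 50 nearest genes had a median log2 fold change of -0.54.

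ANXA6 was the annexin that passed as lower. It is a large annexin made of a doubled core, which gathers at the plasma membrane and at endosomes and is known to affect cholesterol export and Ras signalling. It had 409.9, 364 and 379 RPM in HuCCT1/CD90- and 255, 248 and 237 RPM in HuCCT1/CD90+. No library of one line reached into the range of the other, and the mean fell 1.56-fold, from 384 ± 23.6 to 247 ± 9.18 RPM (SD, n = 3 each; log2 fold change -0.64, SE 0.056, adjusted p = 0.0043, limma). S100A4, S100A3, S100A6, S100A14, ANXA3, ANXA9 and ANXA6 passed without any 1 of the 6 libraries and with the replicate number as a block, where their largest adjusted p was 0.037 (limma).

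The annexins with the highest read counts, ANXA2 and ANXA1, were both somewhat higher in HuCCT1/CD90+, with less support. ANXA2, which binds S100A10, plasminogen and its activator tPA at the cell surface, had 1438, 1058 and 1487 RPM in HuCCT1/CD90- and 1987, 1871 and 2398 RPM in HuCCT1/CD90+. The lines did not overlap, but the difference did not pass in limma over all genes (log2 fold change 0.66, SE 0.18, adjusted p = 0.077). It passed in limma after filters at a mean of 1 RPM (adjusted p = 0.012) or 10 RPM (0.0081) and with median centring (0.040). In limma it did not pass with the replicate number as a block (adjusted p = 0.066), quantile normalization (0.073) or trend and robust eBayes (0.087). Nor did it pass with either other offset (0.077 and 0.078), the neighbour shift divided out (0.094) or any 1 library left out (0.11 to 0.20). On recovered reads it passed with edgeR (adjusted p = 0.0017) and with DESeq2 (adjusted p = 0.00032). The table also holds ANXA2P1, ANXA2P2 and ANXA2P3, pseudogene copies of ANXA2, and ANXA2P2 had means of 25.6 and 30.03 RPM, so few reads were assigned to them.

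ANXA1, an inhibitor of inflammation that acts on formyl peptide receptors, had 623, 549.9 and 641 RPM in HuCCT1/CD90- and 891, 799.6 and 744 RPM in HuCCT1/CD90+. The libraries were separate, and the difference passed just below the threshold (log2 fold change 0.42, SE 0.096, adjusted p = 0.049, limma). It no longer passed with the replicate number as a block (adjusted p = 0.12) or without any 1 of the 6 libraries (adjusted p from 0.078 to 0.13, limma).

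ANXA5, which binds phosphatidylserine exposed on dying cells, ANXA7, a fusion protein of secretory granules, and ANXA11, an annexin of stress granules and lysosomes, showed differences close to 0. ANXA5 had 285, 269 and 299 RPM in HuCCT1/CD90- and 321, 267 and 307 RPM in HuCCT1/CD90+ (log2 fold change 0.064, 95% CI from -0.17 to 0.30). The log2 fold change was -0.00078 for ANXA7 (interval from -0.23 to 0.23) and -0.0050 for ANXA11 (interval from -0.28 to 0.27, limma). For all 3 genes the lines overlapped.

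ANXA4, ANXA8 and ANXA10 had lower means in HuCCT1/CD90+ that did not pass. ANXA10, an annexin of gastric epithelium, had 9.48, 14.3 and 14.9 RPM in HuCCT1/CD90- and 7.40, 6.06 and 8.14 RPM in HuCCT1/CD90+ (log2 fold change -0.75, adjusted p = 0.084, limma, 0.034 without HuCCT1/CD90- replicate 1). On recovered reads it passed with edgeR (adjusted p = 0.0060) and DESeq2 (adjusted p = 0.0071), and in limma with the shift of its neighbours divided out (-1.19, adjusted p = 0.028). Limma also called it after filters at a mean of 1 or 10 RPM and with median centring. It did not pass in limma with the block (adjusted p = 0.17), quantile normalization (0.064) or trend and robust eBayes (0.094). Offsets of 0.1 and 5 RPM (0.083 and 0.088) and the other fits without 1 library (0.15 to 0.21) gave no call either. ANXA4, an annexin of secretory epithelia, differed by -0.41 on the log2 scale (adjusted p = 0.19).

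ANXA8 had 165, 234 and 214 RPM in HuCCT1/CD90- and 133, 185 and 168 RPM in HuCCT1/CD90+. The lines overlapped, and the adjusted p was 0.37 without and 0.018 with the block (limma). It was described after its values were seen. ANXA8 has near-identical copies, ANXA8L1 and ANXA8L2, with means of 97.2 and 42.7 RPM in HuCCT1/CD90- and 69.7 and 43.9 RPM in HuCCT1/CD90+, so the split of reads among them is uncertain. ANXA13, an annexin of the intestine and kidney, had at most 2 reads in any library.

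The known complexes of the families were examined as log2 ratios of RPM + 1 within each library. With 1 RPM added, the ratio of a pair of weakly read genes depends on that offset. S100A10 against ANXA2 gave -2.96, -2.23 and -2.77 in HuCCT1/CD90- and -3.38, -3.09 and -3.46 in HuCCT1/CD90+. Every HuCCT1/CD90+ library lay below every HuCCT1/CD90- library, with a difference of -0.65 (exact permutation test over libraries, two-sided p = 0.10, the smallest p that 3 against 3 libraries allow). S100A11 against ANXA1 had means of 0.16 ± 0.092 and -0.016 ± 0.13 (SD, n = 3 each), which overlapped (exact permutation test, p = 0.30). For S100A8 against S100A9 the ratio of HuCCT1/CD90- is 0 because neither gene had a read, so the ratio says no more than the reads of S100A9, and its difference of -0.66 became -2.58 with an offset of 0.1 RPM and -0.17 with 5 RPM. The exact test gave p = 0.10 for that pair, and with Benjamini-Hochberg adjustment over the 3 pairs none passed, since this exact test cannot give a p under 0.10 with 3 against 3 libraries.

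Genes that the S100 proteins and annexins are known to work with were counted from 6 lists, 77 different genes in all. Of these 9 were higher and 12 lower, beside 9.41% and 9.52% of all genes tested, and with the replicate number as a block 5 and 6. The median log2 fold change of the 77 genes was 0.

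Of 7 receptors for released S100 proteins AGER, the gene of RAGE, was lower and ALCAM, a cell adhesion molecule, higher, with a median of -0.15 over the list. ALCAM (log2 fold change 0.49, adjusted p = 0.017, limma) did not pass with the block (0.095), passed only without HuCCT1/CD90- replicate 1 or 2 when a library was left out, and turned to -0.11 with the shift of its neighbours divided out. AGER had 2.24 ± 0.299 and 0.924 ± 0.236 RPM (SD, n = 3 each; adjusted p = 0.022, limma, 0.11 with the block). It passed without HuCCT1/CD90- replicate 2 or HuCCT1/CD90+ replicate 3 and not without any other library (adjusted p from 0.056 to 0.073), nor with the shift of its neighbours divided out (0.059, limma). Of 12 intracellular partners 2 were lower and 1 higher, beside 9.52% and 9.41% of all genes tested. None of the calls in the receptor and intracellular partner lists was kept with the block (adjusted p from 0.063 to 0.11, limma). Among the intracellular partners PPFIBP1, liprin beta 1, a binding partner of S100A4, fell from 106 ± 6.82 to 75.3 ± 2.01 RPM (adjusted p = 0.0083, limma, 0.064 with the block).

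Of 16 annexin receptors and partners 5 were lower and 3 higher, beside 9.52% and 9.41% of all genes tested. With the block 1 was lower (FPR3) and 1 higher (TRPV6), where 1331 and 1398 of all 20811 genes were. The formyl peptide receptors FPR1, FPR2 and FPR3, of which ANXA1 is a known ligand, were among the lower genes, with unequal support. FPR2 was read only 9, 5 and 4 times in HuCCT1/CD90- against 0 in each HuCCT1/CD90+ library (adjusted p = 0.025, or 0.081 with the block, limma), and it passed only without HuCCT1/CD90- replicate 1 or 3 when a library was left out. Of the 8 leukocyte and myeloid markers CD14 and LYZ were lower and CD68 and CD79A higher in HuCCT1/CD90+, and the part of such cells in these receptors was not tested. FPR3 was read at 5.50, 8.03 and 8.15 RPM in HuCCT1/CD90- but at 0.643, 0.349 and 0.651 RPM in HuCCT1/CD90+, and fell 13.2-fold (log2 fold change -2.40, adjusted p = 0.0027, limma). FPR1 fell 4.34-fold, with 5.94 ± 2.07 RPM in HuCCT1/CD90- against 1.37 ± 0.162 RPM in HuCCT1/CD90+ (adjusted p = 0.023, or 0.072 with the block), and of the fits without 1 library it passed only without HuCCT1/CD90- replicate 1 or 2. TRPV6, an epithelial calcium channel brought to the membrane by S100A10 and ANXA2, had 0 reads in each HuCCT1/CD90- library and a mean of 4.56 ± 0.802 RPM in HuCCT1/CD90+, a rise of at least 14.2-fold from a floor of 3 reads per library (adjusted p = 0.00096, limma).

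Of 13 genes of calcium-triggered membrane repair 4 were higher and none lower, beside 9.41% and 9.52% of all genes tested. These 4 were among the 12 that averaged 10 RPM or more, a level at which 14.3% of all genes were higher and 14.1% lower. SYT7, a calcium sensor of lysosome fusion, rose from 1.89 ± 0.124 to 37.5 ± 5.82 RPM (SD, n = 3 each), 19.8-fold (log2 fold change 3.73, adjusted p = 0.00045, limma). CAPN1, the catalytic subunit of calpain 1, rose 2.91-fold to 763 ± 47.9 RPM (adjusted p = 0.0018), and CHMP4B, a subunit of the ESCRT-III membrane scission complex, 1.69-fold (adjusted p = 0.0084, or 0.052 with the block). MYOF, a ferlin of the plasma membrane, rose 1.54-fold (adjusted p = 0.025, or 0.12 with the block) but passed only without HuCCT1/CD90+ replicate 1 when a library was left out. With the block 3 genes of the list were higher and 1 lower, where 1398 and 1331 of all 20811 genes were. CHMP3, of the same ESCRT-III complex, came in (adjusted p = 0.045), and PDCD6IP, an ESCRT adaptor, was lower (0.019, limma). Both were named after their values were seen. Each of the 13 genes had reads above the floor in at least 1 library.

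The fused-type S100 genes, which join an S100 domain to long repeats and serve the cornified skin layer, lie in the same stretch of chromosome 1 as the S100 cluster. Of 7 such genes 5 were at the floor in every library. FLG, the gene of filaggrin, had 1552, 652 and 961 RPM in HuCCT1/CD90- and 12.3, 5.59 and 11.8 RPM in HuCCT1/CD90+. All HuCCT1/CD90+ libraries were far below, and FLG fell 106-fold (log2 fold change -6.57, SE 0.46, adjusted p = 0.0024, limma). The keratinocyte list whose sums are given beside S100A2 was lower in the same libraries, with means of 85.6 against 1.94 RPM for KRT14 and 5.96 against 0.404 RPM for TP63. KRT5 (adjusted p = 0.57) and KRT10 (0.67, limma) did not pass. The part of the keratinocyte list in the level of FLG was not tested. Between S100A10 and S100A1, the ends of the cluster, the table holds 38 genes other than S100 genes, and of these FLG alone averaged 10 RPM or more. Below that level SPRR2D (0.067 against 3.45 RPM, adjusted p = 0.0020) and SPRR1A (0.032 against 0.557 RPM, adjusted p = 0.034, limma) were higher in HuCCT1/CD90+. Both were named after their values were seen.

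Of 25 other EF-hand calcium sensors 3 were lower and 1 higher, beside 9.52% and 9.41% of all genes tested. The counts were the same with the block, although not for the same genes. With the block 1331 of all 20811 genes were lower and 1398 higher. SRI, the gene of sorcin, rose from 37.4 ± 8.92 to 105 ± 8.96 RPM (SD, n = 3 each; adjusted p = 0.011, limma, 0.057 with the block and 0.0502 without HuCCT1/CD90+ replicate 3). SDF4, an EF-hand protein of the Golgi, fell 1.83-fold (log2 fold change -0.87, adjusted p = 0.0013). With the shift of their neighbours divided out, SRI stood at 0.87 (adjusted p = 0.047) and SDF4 at -0.49 (adjusted p = 0.0057, limma).

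**Figure D4:**
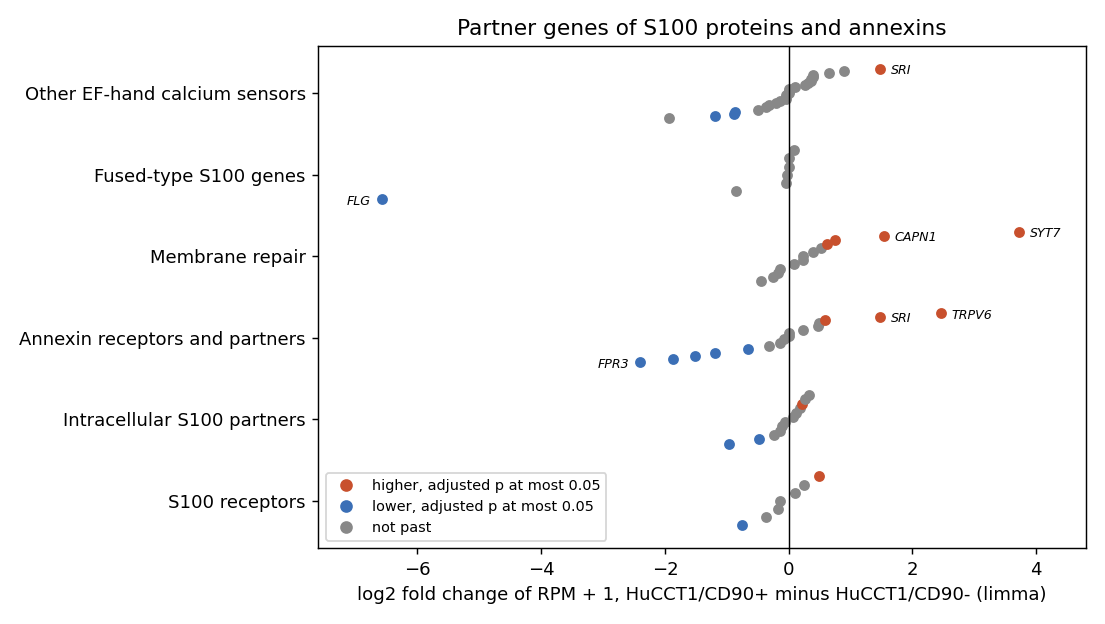
Log2 fold change of RPM + 1, HuCCT1/CD90+ minus HuCCT1/CD90-, for the genes of 6 partner lists, 1 point a gene, with colours for an adjusted p of at most 0.05 (limma); some genes sit in 2 lists. FLG lies at -6.57 and SYT7 at 3.73. Of the 16 annexin receptors and partners 8 are coloured, where 18.9% of all genes tested passed. Of these 8 FPR3 and TRPV6 also passed with the replicate block.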

How the data were processed

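Total RNA of 6 HuCCT1 libraries was reverse-transcribed and amplified by the authors with the Ion AmpliSeq Transcriptome panel, read on the Ion GeneStudio S5 Prime, and reads were counted by the ampliSeqRNA plugin. The deposited values are RPM, scaled by the authors, with 1 column per library, and the processing notes name hg19. Amplicon positions are not given in the sources used here, and gene positions are from GENCODE 29 (GRCh38). Whole reads were recovered for 100% of values (within 0.05 of a whole read).

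Differences were fitted in R 4.3.3 with limma 3.58.1 (lmFit, eBayes with default settings, no covariate, no filter) on log2(RPM + 1) over 20811 genes, two-sided. This offset understates changes of weakly expressed genes. The members and lists were chosen with earlier results of these data known. Every member was counted. Named in detail were members that passed either call rule, the 5 S100 and 5 annexin genes of highest mean, the genes of the complexes, and up to 4 called genes per partner list. S100A5, S100A13, S100P, ANXA4, ANXA8 and ANXA11 and the remaining silent members were named to complete the account.

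Same-numbered libraries deviated together from the means of their lines (r = 0.21, 0.32 and 0.18), while the other pairs gave r from -0.29 to 0.073, so the numbers were taken to pair them, from this check alone. Alternatives were other offsets, filters and normalizations, a replicate block, each library left out, trend and robust eBayes, edgeR 4.0.16 (TMM, filterByExpr) and DESeq2 1.42.0 on recovered reads (edgeR called 5357 of 12070 genes), and the median of 50 neighbouring genes divided out. The code was tested on simulated data.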

Additional observations from a re-analysis of the deposited data

How the results depend on the processing

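Over all genes limma called 3939, and from 2197 to 2932 with a library left out. THY1 kept its direction and its call in every alternative, with log2 fold changes from 5.60 to 5.92 when a library was left out. The count of higher S100 rows went from 2 to 1 with an offset of 5 RPM, filters at a mean of 1 or 10 RPM, quantile normalization, trend and robust eBayes, the replicate block, edgeR and the thresholds of the study (1 to 2 with a library left out), and to 3 with DESeq2 and with the neighbour shift taken out. The count of lower S100 rows went from 5 to 3 with the neighbour shift taken out (3 to 6 with a library left out). The count of lower annexins went from 1 to 2 with both filters, median centring, the replicate block, edgeR, DESeq2, the neighbour shift taken out and the thresholds of the study (1 to 2 with a library left out), and that of higher annexins, 3, became 4 with the filter at 1 RPM, median centring, edgeR and DESeq2, and 2 with quantile normalization, trend and robust eBayes, the replicate block and every fit with a library left out. Partner genes counted 5 higher and 6 lower with the replicate block, 16 higher with edgeR and with DESeq2, and 6 lower with the filter at 10 RPM (4 to 8 higher and 4 to 12 lower with a library left out). Over all genes the block called 1398 higher and 1331 lower of 20811. EdgeR called 2679 of 12070 higher, DESeq2 2731 of 14399 higher, and the filter at 10 RPM 1812 of 8794 lower. The S100A10 to ANXA2, S100A11 to ANXA1 and S100A8 to S100A9 differences ranged from -0.81 to -0.44, from -0.25 to -0.12 and from -0.85 to -0.36 with a library left out, and the last was -2.58 and -0.17 with offsets of 0.1 and 5 RPM. Among the 20 members named by the rule, signs changed for 4, none past the threshold in the reported fit: ANXA5 (-0.19), ANXA7 (0.052) and S100A16 (0.41) with the neighbour shift taken out, ANXA7 with DESeq2 (0.0061), and S100A10 with quantile normalization (-0.012) and median centring (-0.022); with the neighbour shift taken out S100A10 stood at 0.42. When a library was left out, ANXA7 ranged from -0.068 to 0.051, S100A10 from -0.080 to 0.069 and S100A16 from -0.12 to 0.14. The causes were not tested. The replicate block ended the calls of ANXA1, S100PBP and S100Z and added ANXA8, and changed no other call among the 34 genes. Quantile normalization and median centring put the median log2 fold change of genes averaging 1 RPM or more at -0.012 and -0.035. At this depth a gene under about 0.3 RPM in every library cannot be told from one without expression.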
